A study of Mus musculus with 9 samples.

Results

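The TRIM genes of BV-2 cells, an immortalized mouse microglial line, were followed through stimulation and treatment. Members were all symbols of the count table that begin with Trim and a digit, which gave 43 of the 12413 symbols. In all, 3 groups of 3 libraries each were compared. Control cells received PBS, Medium cells received, with PBS by the study's account, lipopolysaccharide (LPS, a bacterial cell wall component that activates microglia), and BHB cells received LPS together with β-hydroxybutyrate, the main circulating ketone body. All groups are the same cell line, and no group received BHB without LPS. The study describes its replicates in general as biological, but the labels do not say whether the 3 libraries of a group came from separate cultures. P-values reflect variation among these libraries only, which may be technical. The comparison of Medium with Control addresses what LPS changes, and that of BHB with Medium addresses what the ketone body changes in stimulated cells.

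TRIM proteins share a tripartite N-terminal motif of a RING finger, 1 or 2 B-box domains and a coiled coil. The RING finger makes most of them ubiquitin ligases, which attach ubiquitin to other proteins and thereby mark them for destruction or switch signalling complexes on. The C-terminal domain, such as a PRY-SPRY, NHL-repeat, bromodomain or COS box, sets what a member binds. Many members take part in innate immunity: some carry the alarm from viral RNA sensors and some dampen it, and several are themselves induced by interferon. Other members repress chromatin, organise microtubules or degrade muscle proteins.

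Library totals ranged from 23411672 to 32767278 counts, with a median of 27905139. Within groups, the third Medium library differed from the others: its chi-square over degrees of freedom was 33.4 and 29.6 against them, where theirs was 4.34. Microglial markers summed to between 3504 and 3685 CPM (counts scaled to a common library total by the TMM method) in Control, between 2624 and 3434 in Medium and between 3286 and 3547 in BHB. Of the 12 microglial markers tested, 2 rose and 7 fell with LPS, and 9 rose and 2 fell in BHB relative to Medium. P2ry12, a marker of resting microglia, was below the filter on low counts. Of 20 markers of other brain, immune, fibroblast and muscle cells, 9 were in the table and 3 passed the filter, and their summed level was at most 8.73 CPM in every library. Whether the change in microglial markers has a part in any result on TRIM genes was not tested.

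In all, 35 of the 43 TRIM genes passed the filter and were tested with edgeR within the whole table of 10413 genes. With LPS, 10 rose and 14 fell, which is 68.6% of those tested, beside 72.6% of all genes (36.3% higher and 36.3% lower). With BHB, 6 rose and 17 fell relative to Medium, together 65.7% beside 66.9% of all genes. The share called was thus near the background in both comparisons. The split by direction differed from it in value: 17.1% rose and 48.6% fell with BHB, beside 33.2% and 33.6% of all genes. Changes of at least 2-fold were called upward for 3 and downward for 5 TRIM genes with LPS, beside 7.74% and 11% of all genes. Of the 3 upward, Trim72 had at most 15 counts in any library. With BHB they were called upward for 2 and downward for 3, beside 7.74% and 4.99%. The libraries of both groups did not overlap for 26 TRIM genes with LPS (74.3%, beside 75.1% of all genes) and for 22 with BHB (62.9%, beside 68%). The median log2 fold change of TRIM genes was -0.09 with LPS, where that of all genes was -0.005, and -0.22 with BHB, where that of all genes was 0.004. Scaling by library size alone moved the median of all genes to -0.27 with LPS and to 0.13 with BHB. The calls were then 6 up and 19 down for LPS, against 8 up and 10 down for BHB, while the gap between TRIM genes and all genes was -0.08 and -0.22. The median of TRIM genes with LPS was unstable: it was -0.04 without the first Medium library, -0.17 without the second, -0.24 without the third and -0.25 with at least 10 counts in every library. The counts of members are a description, since members are not replicates of a condition.

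**Figure D1:**
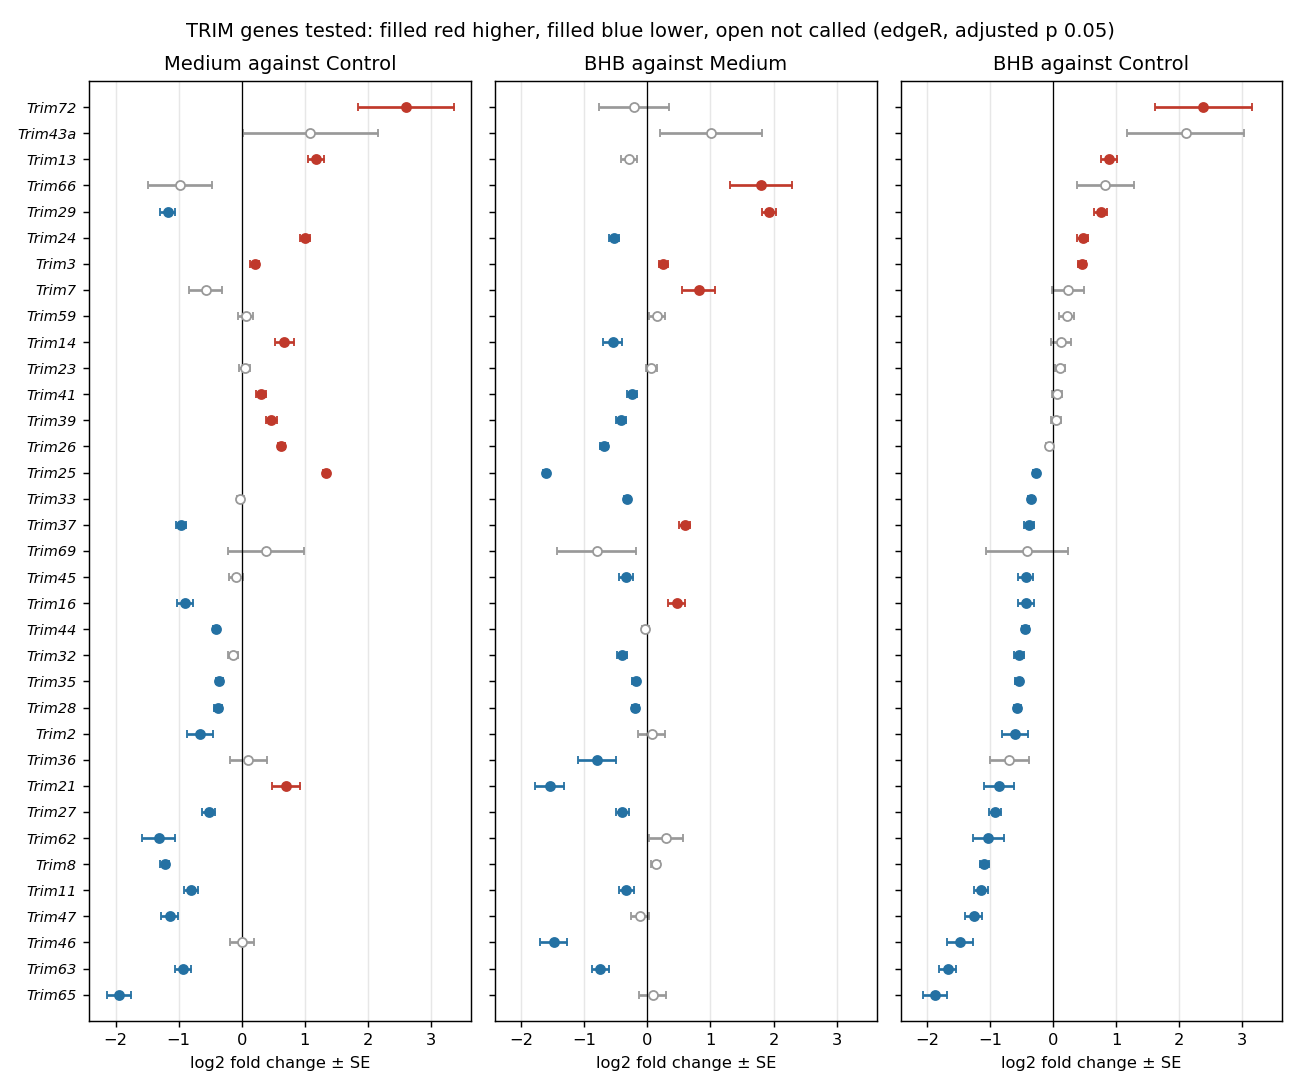
Log2 fold change ± SE of the 35 TRIM genes tested, in Medium against Control, BHB against Medium and BHB against Control, with genes ordered by the last. Filled points passed the edgeR test at an adjusted p of 0.05; 19 genes lie lower and 5 higher in BHB than in Control.

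All TRIM transcripts together made up 1746 ± 28.7 CPM in Control cells, 1889 ± 9.59 in Medium cells and 1337 ± 42.0 in BHB cells (SD, n = 3). The libraries of the 3 groups did not overlap. Trim25 alone held 14.2% of TRIM counts in Control, 33.3% in Medium and 15.4% in BHB. Without Trim25 the sum was 1498 ± 26.4 CPM in Control cells, 1261 ± 21.9 in Medium cells and 1131 ± 43.3 in BHB cells (SD, n = 3). The order of Control and Medium therefore turned when this single gene was set aside. In bulk samples, fewer expressing cells and less RNA per cell cannot be told apart.

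**Figure D2:**
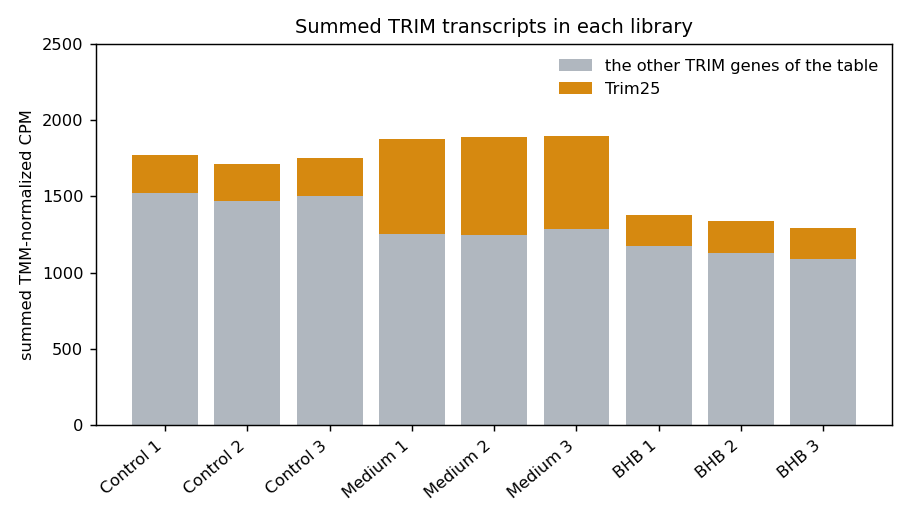
Summed TMM-normalized CPM of all 43 TRIM genes in each of the 9 libraries, with Trim25 in orange and the other TRIM genes in grey. The total is between 1880 and 1899 CPM in Medium and between 1294 and 1378 in BHB, and the grey part is lower in Medium than in Control.

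Among the members of antiviral signalling, Trim25, Trim26 and Trim21 rose with LPS and fell with BHB. Their promoter windows are shown because these are the members of this list that the RefSeq promoter table covers (31 of the 43 TRIM genes have an entry). Capitals mark matches to the core of the interferon-stimulated response element (ISRE), which binds IRF factors: GAAA, any pair of bases and GAAA again, searched on both strands. The windows of Trim25 and Trim26 hold the 250 bases before the RefSeq transcript start, at chr11:88999153-88999402 (plus strand) and chr17:36836896-36837145 (plus strand) of GRCm38.p6. That of Trim21, at chr7:102565454-102565732 (minus strand), runs 29 bases further, past the start.
Trim25: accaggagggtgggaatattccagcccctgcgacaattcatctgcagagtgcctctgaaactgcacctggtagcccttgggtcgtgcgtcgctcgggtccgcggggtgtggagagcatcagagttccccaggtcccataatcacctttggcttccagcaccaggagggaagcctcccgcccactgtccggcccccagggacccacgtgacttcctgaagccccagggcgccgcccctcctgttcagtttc
Trim26: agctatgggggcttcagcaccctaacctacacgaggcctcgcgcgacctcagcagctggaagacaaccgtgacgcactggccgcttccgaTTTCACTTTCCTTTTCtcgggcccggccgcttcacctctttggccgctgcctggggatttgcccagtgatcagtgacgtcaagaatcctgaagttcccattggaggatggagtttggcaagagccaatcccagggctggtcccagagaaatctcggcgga
Trim21: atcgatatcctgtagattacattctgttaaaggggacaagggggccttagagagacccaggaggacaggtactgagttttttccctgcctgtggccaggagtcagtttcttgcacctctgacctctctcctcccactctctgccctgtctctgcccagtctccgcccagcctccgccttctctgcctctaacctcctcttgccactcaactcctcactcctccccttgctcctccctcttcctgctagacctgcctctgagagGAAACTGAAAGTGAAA
The 250 bases before the start were searched first. There the ISRE core was found in 2 of the 43 windows of these 31 TRIM genes, those of Trim26 and Trim5, beside 2.98% of all 32851 windows. The match in Trim26 is a pair of overlapping copies, at 160 to 151 and 154 to 145 bases before the start. The whole 300-base reference window, which adds 50 bases after the start, was searched afterwards with that result known. It held the core in 4 of the 43 windows, with Trim21 and Trim2 added, beside 3.44% of all windows. In Trim21 the copies overlap at bases 14 to 23 and 20 to 29 after the start. The kappa-B site (GGGA, any base, then TTTCC) was in no TRIM window, beside 0.356% and 0.411% of all windows. No match means only that these letters are not in the window, and a match is a description of the sequence.

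Trim25, which ubiquitinates the RNA sensor RIG-I and is itself induced by interferon, lies at chr11:88999376-89020293 (plus strand, GRCm38). It had 6400, 7682 and 6999 counts (Control), 18181, 15308 and 16066 (Medium), and 5750, 6478 and 5639 (BHB). Scaled for depth, it stood at 249 ± 3.88 CPM in Control cells, 628 ± 14.8 in Medium cells and 206 ± 4.31 in BHB cells (SD, n = 3). Every Medium library lay above every other library, and BHB libraries lay below Control. Trim25 rose 2.53-fold with LPS (log2 fold change 1.34, SE 0.0510, edgeR adjusted p = 1.59e-11) and fell 3.06-fold with BHB (log2 fold change -1.61, SE 0.0515, adjusted p = 8.81e-12). It was 1.21-fold lower in BHB than in Control (edgeR adjusted p = 0.000250).

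Trim21 encodes a cytosolic antibody receptor that directs antibody-coated viruses to the proteasome. Its counts were 130, 171 and 99 (Control), 159, 177 and 260 (Medium), and 61, 83 and 81 (BHB). Its level was 4.69 ± 0.987 CPM in Control cells, 7.62 ± 2.22 in Medium cells and 2.59 ± 0.407 in BHB cells (SD, n = 3). The Control and Medium libraries came close to each other, while the BHB libraries lay below all others. Trim21 was 1.62-fold higher with LPS (log2 fold change 0.70, SE 0.224, edgeR adjusted p = 0.0118) and fell 2.93-fold with BHB (log2 fold change -1.55, SE 0.236, adjusted p = 4.34e-05). The rise with LPS was not called without the third Control library (edgeR adjusted p = 0.0607), without the third Medium library (adjusted p = 0.0530) or with library sizes alone (adjusted p = 0.119), within a range over alternatives of 0.00217 to 0.119. The fall with BHB was called in every alternative run, and Trim21 was 1.81-fold lower in BHB than in Control (edgeR adjusted p = 0.00585).

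Trim26, which acts on IRF3 and NEMO, was at 85.8, 85.3 and 83.6 CPM (Control), 133, 131 and 129 (Medium), and 79.8, 87.2 and 76.9 (BHB). It rose 1.54-fold with LPS (log2 fold change 0.63, SE 0.0568, edgeR adjusted p = 1.71e-07) and fell 1.61-fold with BHB (log2 fold change -0.69, SE 0.0569, adjusted p = 1.05e-07). The BHB and Control libraries overlapped, and their difference was not called (log2 fold change -0.06, edgeR adjusted p = 0.346). Trim14, a RING-less adaptor at the mitochondrial protein MAVS, moved alike, at 6.70 ± 0.624 CPM in Control cells, 10.7 ± 1.71 in Medium cells and 7.31 ± 1.13 in BHB cells (SD, n = 3). Its log2 fold change was 0.68 with LPS (edgeR adjusted p = 0.00120) and -0.55 with BHB (adjusted p = 0.00569). Trim14 shares 1356 exonic bases (31.3% of its exons) with Nans on the opposite strand, whose own log2 fold changes were 0.41 and -0.24. The study describes a stranded alignment, but no source used here says whether the counts kept strand, so a share of reads from Nans in the Trim14 counts was not tested.

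Trim65, a ligase of the RNA sensor MDA5, was the exception in this list. It had 239, 214 and 217 counts (Control), 56, 57 and 49 (Medium), and 71, 59 and 59 (BHB). The Control libraries stood far above the others, and Medium and BHB overlapped. Trim65 fell 3.86-fold with LPS (log2 fold change -1.95, SE 0.195, edgeR adjusted p = 4.69e-07) and did not pass the test with BHB (log2 fold change 0.08, SE 0.211, adjusted p = 0.750), so that it was 3.65-fold lower in BHB than in Control (adjusted p = 8.91e-07). Of the 8 antiviral members listed, only 5 were in the table, and all 5 were tested. Among these 5, 4 rose and 1 fell with LPS, and 4 fell with BHB, where 36.3%, 36.3% and 33.6% of all genes did so. No gene of the TRIM5-like cluster could be tested. Of the 10 listed, only Trim5 and Trim30c were in the table, with totals of 21 and 17 counts over the 9 libraries. Trim30a could therefore not be analysed here.

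**Figure D3:**
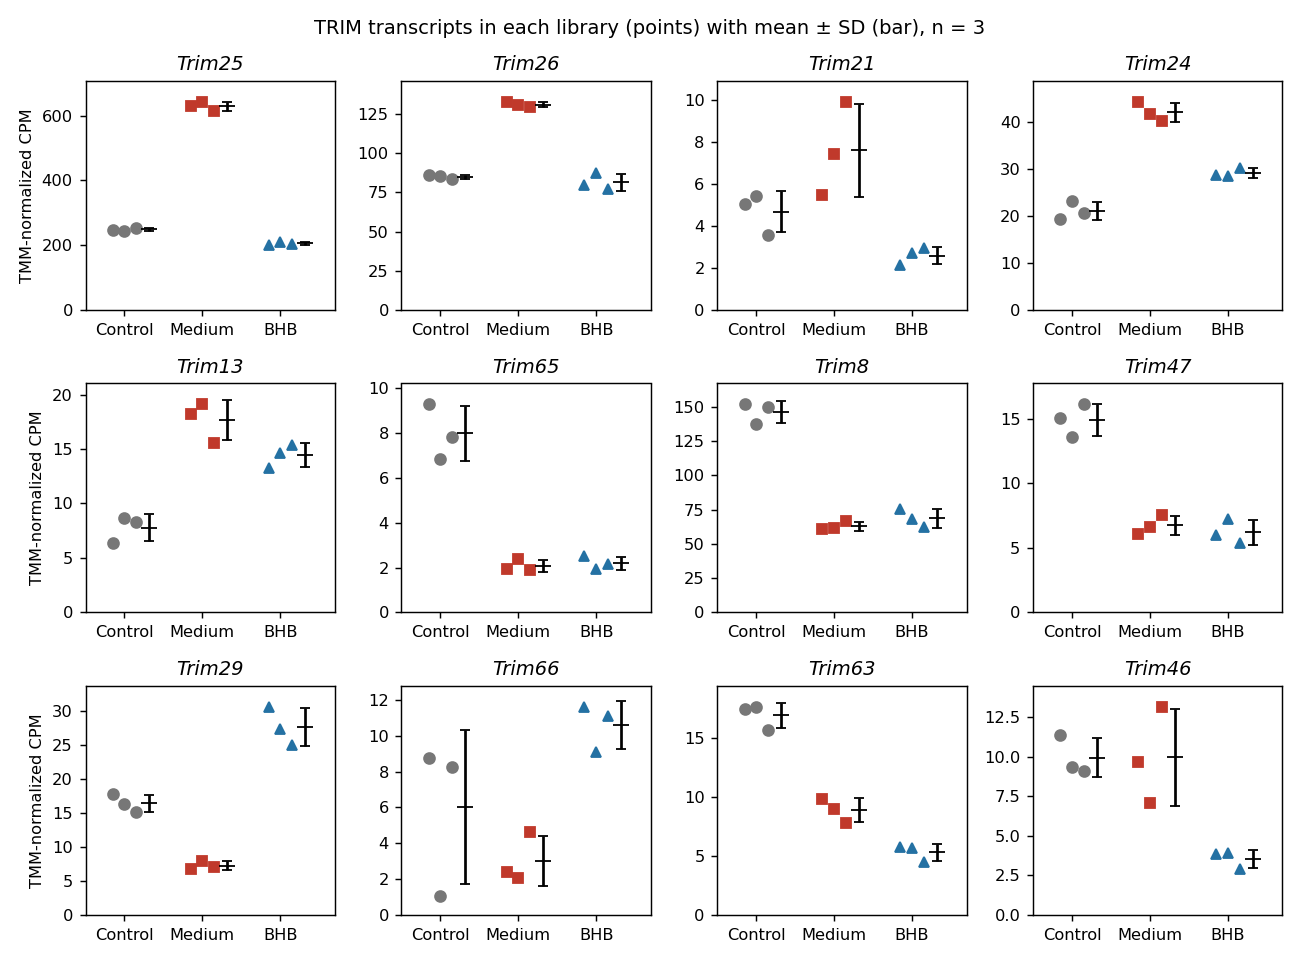
TMM-normalized CPM of 12 TRIM genes in each library (points; grey circles Control, red squares Medium, blue triangles BHB) with mean ± SD (bars, n = 3), each panel on its own scale from 0. Trim25 is between 613 and 643 CPM in Medium and at most 253 elsewhere, Trim65 and Trim8 stay low in BHB, Trim29 is highest in BHB, and Trim66 shows 1 Control library at 1.08 CPM.

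The TIF1 members are nuclear cofactors with a PHD finger and a bromodomain that read and silence chromatin. Trim24, a nuclear receptor cofactor, had 496, 724 and 573 counts (Control), 1277, 990 and 1052 (Medium), and 818, 874 and 833 (BHB). The groups did not overlap after scaling, and BHB lay between the other groups. Trim24 rose 2.00-fold with LPS (log2 fold change 1.00, SE 0.0814, edgeR adjusted p = 5.47e-08) and fell 1.44-fold with BHB (log2 fold change -0.53, SE 0.0798, adjusted p = 4.08e-05). It remained 1.38-fold above Control (edgeR adjusted p = 0.000155).

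Trim28 (KAP1), the corepressor that KRAB zinc-finger proteins use to silence retroelements, had 5518, 6424 and 5763 counts (Control), 4618, 3824 and 4265 (Medium), and 4346, 4269 and 3632 (BHB). Its level went from 209 ± 4.68 to 161 ± 1.52 and then 141 ± 10.7 CPM (SD, n = 3), with no overlap between groups. Trim28 fell with LPS (log2 fold change -0.38, SE 0.0581, edgeR adjusted p = 3.98e-05) and again with BHB (log2 fold change -0.19, SE 0.0584, adjusted p = 0.00947). The second step was not called with library sizes alone (log2 fold change -0.06, edgeR adjusted p = 0.405). Trim33, a ligase of SMAD4, had 4014, 5025 and 4385 counts (Control), 4596, 3670 and 4036 (Medium), and 3642, 3633 and 3501 (BHB). Control and Medium overlapped (log2 fold change -0.02, edgeR adjusted p = 0.726), and Trim33 fell with BHB (log2 fold change -0.33, SE 0.0518, adjusted p = 6.62e-05). With library sizes alone Trim33 was also lower with LPS (log2 fold change -0.29, edgeR adjusted p = 0.000250).

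Trim66, a TIF1 relative at chr7:109449006-109508134 (minus strand, GRCm38), had 226, 34 and 229 counts (Control), 69, 49 and 121 (Medium), and 331, 280 and 306 (BHB). The second Control library fell far below the other Control libraries, and every BHB library exceeded every other library. The difference between BHB and Control was still not called (log2 fold change 0.83, SE 0.457, edgeR adjusted p = 0.122), and 4 of 17 alternatives called it. Trim66 rose 3.50-fold with BHB relative to Medium (log2 fold change 1.81, SE 0.490, edgeR adjusted p = 0.00471), and this was called in all 17 alternatives, with log2 fold changes of 1.60 to 2.24. Its difference between Medium and Control was not called (log2 fold change -0.98, SE 0.504, edgeR adjusted p = 0.0949). It was called without the second Control library (log2 fold change -1.49, edgeR adjusted p = 0.000247) and without the third Medium library (log2 fold change -1.41, adjusted p = 0.0151). With all libraries kept but no filter on low counts it was called as well (log2 fold change -0.98, edgeR adjusted p = 0.0488).

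Among the NHL-repeat members, whose propeller domain binds RNA or protein, Trim32 is mutated in a limb-girdle muscular dystrophy. It had 720, 858 and 758 counts (Control), 743, 618 and 607 (Medium), and 506, 597 and 538 (BHB). Trim32 fell with BHB (log2 fold change -0.40, SE 0.0812, edgeR adjusted p = 0.000541), while its change with LPS was not called (log2 fold change -0.14, adjusted p = 0.122) except with library sizes alone (adjusted p = 0.000253). Trim3 was the only TRIM gene called higher in both steps, with log2 fold changes of 0.21 with LPS and 0.25 with BHB (edgeR adjusted p = 0.0158 and 0.00486). Its rise with LPS was not called without the second Control library (adjusted p = 0.0557 in edgeR) or the first Medium library (adjusted p = 0.0570), and its sign turned with library sizes alone (log2 fold change -0.06). Trim2, a ligase of neurofilament light chain, fell with LPS (log2 fold change -0.67, edgeR adjusted p = 0.00948) and had a log2 fold change of 0.07 with BHB (adjusted p = 0.799).

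All 3 COS-box members tested fell with BHB in the main test, beside 33.6% of all genes, and 1 of them, Trim36, lost its call in 5 of 17 alternatives. Trim63 (MuRF1), known as the ligase that degrades muscle proteins in atrophy, had 450, 554 and 434 counts (Control), 285, 215 and 204 (Medium), and 164, 175 and 123 (BHB). The groups stepped down without overlap. Trim63 fell with LPS (log2 fold change -0.93, SE 0.129, edgeR adjusted p = 1.38e-05) and with BHB (log2 fold change -0.75, SE 0.138, adjusted p = 0.000252), and was 3.19-fold lower in BHB than in Control (adjusted p = 7.04e-08). The muscle markers Myh1, Actn2 and Ckm were not among the genes that passed the filter.

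Trim46, which bundles microtubules in axons, had 294, 293 and 253 counts (Control), 280, 168 and 345 (Medium), and 110, 120 and 80 (BHB). Control and Medium overlapped (log2 fold change 0.01, edgeR adjusted p = 0.978), and all BHB libraries lay below both. Trim46 fell 2.80-fold with BHB (log2 fold change -1.49, SE 0.210, edgeR adjusted p = 2.16e-05). It shares 239 exonic bases (6.3%) with Krtcap2 on the opposite strand, whose log2 fold changes were 0.60 with LPS and -0.76 with BHB. Trim36 was lower with BHB (log2 fold change -0.80, SE 0.305, edgeR adjusted p = 0.0321), but not called without the second Medium library (log2 fold change -0.44, adjusted p = 0.212), without the second BHB library (adjusted p = 0.120), without the third BHB library (adjusted p = 0.0574), with limma-voom (adjusted p = 0.0561) or with library sizes alone (adjusted p = 0.0733).

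Of the members anchored in membranes, Trim13, a ligase of the endoplasmic reticulum, had 165, 273 and 229 counts (Control), 526, 455 and 408 (Medium), and 377, 451 and 425 (BHB). It rose 2.26-fold with LPS (log2 fold change 1.17, SE 0.130, edgeR adjusted p = 1.33e-06). Its difference between BHB and Medium was just short of the threshold (log2 fold change -0.29, SE 0.124, edgeR adjusted p = 0.0524). That difference was called without the third Medium library (edgeR adjusted p = 0.00907) and without the first Control library (adjusted p = 0.0333). With limma-voom it was called as well (adjusted p = 0.0386). Trim13 was 1.85-fold higher in BHB than in Control (edgeR adjusted p = 3.07e-05). Trim59 was not called in any of the 3 comparisons.

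The course of Trim29 ran opposite to that of Trim25. Trim29 lies at chr9:43310848-43336115 (plus strand, GRCm38) and encodes a RING-less member that restrains innate signalling in mouse alveolar macrophages. It had 458, 512 and 422 counts (Control), 194, 191 and 186 (Medium), and 874, 846 and 690 (BHB). The 3 groups did not overlap, and BHB was highest. Trim29 fell 2.26-fold with LPS (log2 fold change -1.18, SE 0.114, edgeR adjusted p = 3.18e-07), rose 3.82-fold with BHB (log2 fold change 1.93, SE 0.112, adjusted p = 2.63e-09) and was 1.69-fold higher in BHB than in Control (adjusted p = 1.70e-05). Trim37, a centrosomal and peroxisomal ligase, and Trim16, which acts on damaged lysosomes, also fell with LPS (log2 fold changes -0.97 and -0.90) and rose with BHB (0.59 and 0.47). Both stayed below Control in BHB, with log2 fold changes of -0.38 and -0.43. Trim16 shares 237 exonic bases (5.2%) on the same strand with Fbxw10, whose log2 fold changes were -1.37 and 1.28.

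Several ligases fell with LPS and showed no called change with BHB. Trim8, which promotes NF-κB signalling through TAK1, had 3919, 4309 and 4161 counts (Control), 1752, 1463 and 1740 (Medium), and 2160, 2099 and 1712 (BHB). Control stood above all other libraries, and Medium and BHB overlapped. Trim8 fell 2.33-fold with LPS (log2 fold change -1.22, SE 0.0744, edgeR adjusted p = 2.26e-09), and its log2 fold change with BHB was 0.13 (SE 0.0747, adjusted p = 0.142). It was called higher with BHB without the third Medium library (edgeR adjusted p = 0.0404) and without the third BHB library (adjusted p = 0.0348). With library sizes alone it was called as well (log2 fold change 0.26, edgeR adjusted p = 0.0228).

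Trim47, next to Trim65 in the genome and sharing 225 exonic bases with it on the minus strand of chromosome 11, had 388, 427 and 447 counts (Control), 175, 158 and 198 (Medium), and 170, 224 and 149 (BHB). It fell 2.21-fold with LPS (log2 fold change -1.15, SE 0.139, edgeR adjusted p = 3.55e-06) and had a log2 fold change of -0.12 with BHB (adjusted p = 0.498). The shared bases are 8.2% of the exons of Trim47 and 3.8% of those of Trim65. Trim62, a ligase of CARD9, had 105, 104 and 132 counts (Control), 43, 27 and 58 (Medium), and 55, 64 and 53 (BHB). It fell 2.50-fold with LPS (log2 fold change -1.32, SE 0.255, edgeR adjusted p = 0.000296), with a log2 fold change of 0.29 with BHB (SE 0.268, adjusted p = 0.353). Trim44, a RING-less member, followed the same course at a higher level, with log2 fold changes of -0.41 and -0.03.

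Other members fell at both steps. Trim11, which promotes clearance of misfolded proteins, had 750, 914 and 866 counts (Control), 443, 451 and 444 (Medium), and 446, 410 and 318 (BHB). It fell 1.75-fold with LPS (log2 fold change -0.81, SE 0.112, edgeR adjusted p = 1.32e-05). The BHB and Medium libraries overlapped, and the fall with BHB (log2 fold change -0.34, edgeR adjusted p = 0.0187) was not called in 5 of the 17 alternatives, among them those without the second Medium library (adjusted p = 0.0818), the second BHB library (adjusted p = 0.0535) or the third BHB library (adjusted p = 0.0907). Trim27, first known as the Ret finger protein, had 2009, 2165 and 2115 counts (Control), 1447, 1086 and 1556 (Medium), and 1248, 1195 and 965 (BHB). It fell with LPS (log2 fold change -0.52, SE 0.0983, edgeR adjusted p = 0.000229) and with BHB (log2 fold change -0.40, SE 0.1, adjusted p = 0.00274), and was 1.90-fold lower in BHB than in Control (adjusted p = 1.43e-06). The second step was not called with library sizes alone (edgeR adjusted p = 0.0613). Trim35 fell by smaller amounts, with log2 fold changes of -0.36 and -0.19, and its second step was not called without the third BHB library (edgeR adjusted p = 0.0521) or with library sizes alone (log2 fold change -0.06, adjusted p = 0.430).

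Crossing both steps, 7 TRIM genes rose with LPS and fell with BHB (Trim14, Trim21, Trim24, Trim25, Trim26, Trim39 and Trim41), which is 20% of those tested beside 21.8% of all genes. A further 3 fell and then rose (Trim16, Trim29 and Trim37), 8.57% beside 21.3%. Trim11, Trim27, Trim28, Trim35 and Trim63 fell at both steps, 14.3% beside 4.24% of all genes. Another 5 fell with BHB alone (Trim32, Trim33, Trim36, Trim45 and Trim46), 14.3% beside 7.61%, and 6 fell with LPS alone (Trim2, Trim8, Trim44, Trim47, Trim62 and Trim65), 17.1% beside 10.8%. Trim3 rose at both steps (2.86% beside 4.41%), Trim13 and Trim72 rose with LPS alone (5.71% beside 10.1%), and Trim7 and Trim66 rose with BHB alone (5.71% beside 7.49%). The remaining 4 were not called in either step (11.4% beside 12.3%). Both steps share the Medium libraries, so a high or low Medium value moves them in opposite directions, and the split is a description without a test. With library sizes alone it held 4 genes that rose and fell, 5 that fell and rose and 3 that fell at both steps. Without the third Medium library 6 genes fell and then rose, and without the third BHB library 3 fell at both steps.

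**Figure D4:**
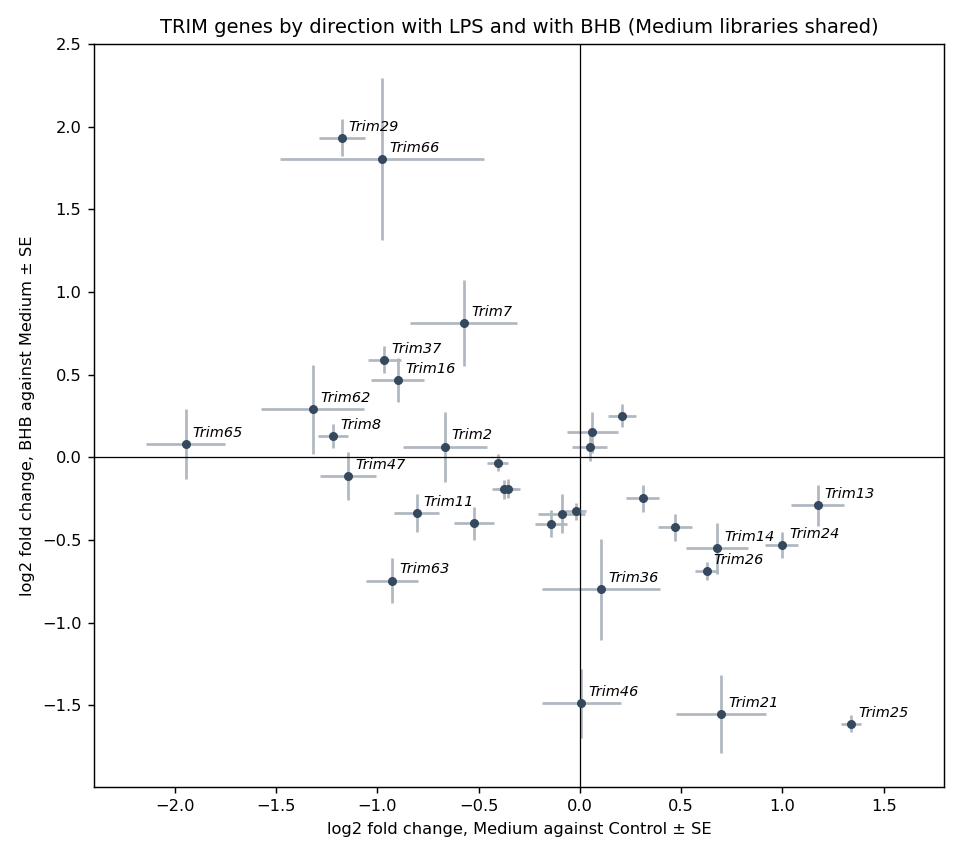
Log2 fold change ± SE of TRIM genes in Medium against Control (horizontal) and in BHB against Medium (vertical), which share the Medium libraries. Trim25 lies at 1.34 and -1.61 and Trim29 at -1.18 and 1.93; Trim72, Trim43a and Trim69, with few counts, are left out.

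Measured against Control, 5 TRIM genes were higher and 19 lower in cells that had received LPS and BHB, beside 33.4% and 33.3% of all genes in these directions. In either direction 68.6% were called, beside 66.7% of all genes. The shares by direction were 14.3% and 54.3% of the 35 tested, with a median log2 fold change of -0.41 where that of all genes was -0.0004. Of the 7 genes that rose with LPS and fell with BHB, Trim24 was above Control, Trim21 and Trim25 were below it, and 4 were not called. All 5 that fell at both steps and all 6 that fell with LPS alone were below Control, of which Trim2 was not called without the first Control library (edgeR adjusted p = 0.0694) or the third BHB library (adjusted p = 0.0638). At least 2-fold, 1 gene was called higher and 7 lower, beside 6.72% and 6.55% of all genes. The 1 called higher was Trim72, which had at most 15 counts in any library. The libraries of 27 genes did not overlap (77.1%, beside 75.3%). The 5 genes above Control were Trim3, Trim13, Trim24, Trim29 and Trim72. Trim72 was not called without the second Control library (edgeR adjusted p = 0.0585) or the second BHB library (adjusted p = 0.0541). Scaling by library size alone gave 5 higher and 21 lower.

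Per kilobase of exon, the order of TRIM transcripts changed at its top. In Control, Trim28 led with 50.2 CPM per kb, followed by Trim25 with 43.2, Trim8 with 39.5 and Trim35 with 38.2, of which the last pair overlapped over libraries. In Medium, Trim25 stood at 109 CPM per kb, against 38.7 for Trim28, 29.8 for Trim35 and 23.7 for Trim44. In BHB, Trim25 with 35.7 and Trim28 with 33.9 CPM per kb overlapped. Trim8 had already moved down to 16.9 in Medium and stood at 18.5 in BHB.

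Of the remaining members, some had few counts and others, such as Trim41 with 1450 to 2060 counts a library, did not. Trim72 (MG53), a membrane repair protein of muscle, had 4, 0 and 2 counts (Control), 14, 10 and 12 (Medium), and 6, 15 and 13 (BHB). It passed the test with LPS (log2 fold change 2.60, SE 0.759, edgeR adjusted p = 0.00657), and its log2 fold change ranged from 1.98 without the second Control library to 3.58 without the first. It shares 617 exonic bases (27.6%) with an antisense gene. The 8 members below the filter (Trim5, Trim10, Trim17, Trim30c, Trim50, Trim54, Trim67 and Trim71) had at most 9 counts in any library. Trim23, Trim43a, Trim59 and Trim69 were not called in any comparison. Trim7 rose with BHB (log2 fold change 0.81, edgeR adjusted p = 0.0133), but was not called without the second Medium library (adjusted p = 0.0592), the first BHB library (adjusted p = 0.0646) or the third BHB library (adjusted p = 0.0524). Trim45 fell with BHB (log2 fold change -0.34, edgeR adjusted p = 0.0190), but was not called without the third Medium library (adjusted p = 0.0824), the second BHB library (adjusted p = 0.0603) or the third BHB library (adjusted p = 0.0694). Trim39 and Trim41 rose with LPS (log2 fold changes 0.47 and 0.31) and fell with BHB (-0.42 and -0.25). The rise of neither was called with library sizes alone, and the fall of Trim41 was not called without the third BHB library (edgeR adjusted p = 0.0623) or with library sizes alone (log2 fold change -0.12, adjusted p = 0.234). Trim41 shares 31 exonic bases (0.9%) with Rack1 on the opposite strand, whose log2 fold changes were 0.48 and -0.67. Rack1 averaged 2183 (Control), 3037 (Medium) and 1908 CPM (BHB), where Trim41 averaged 58.0, 71.9 and 60.5. A share of reads from Rack1 in the Trim41 counts was not tested.

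The partners of TRIM ligases were read from lists of E2 enzymes, which hand ubiquitin to the ligase, of relatives under other names and of target proteins in innate sensing. Of 7 E2 enzymes tested, 4 rose and 1 fell with LPS, and 2 rose and 3 fell with BHB. Of all genes, 36.3% rose and 36.3% fell with LPS, and 33.2% rose and 33.6% fell with BHB. Ube2l6, the E2 of the ubiquitin-like protein ISG15, changed most, from 56.8 CPM in Control to 126 in Medium and 37.7 in BHB (log2 fold changes 1.15 and -1.74). Of 3 relatives tested, Pml, the organiser of nuclear bodies, rose with LPS (log2 fold change 0.54) and fell with BHB (-0.47), and Mid2 rose with LPS (0.50).

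Of 16 sensing genes tested, 7 rose and 6 fell with LPS, and 2 rose and 10 fell with BHB. Of all genes, 36.3% rose and 36.3% fell with LPS, and 33.2% rose and 33.6% fell with BHB. Ddx58, which encodes RIG-I, the target of Trim25, went from 31.6 CPM in Control to 126 in Medium and 55.8 in BHB (log2 fold changes 2.00 and -1.18). Irf7, a transcription factor of the interferon response, had log2 fold changes of 3.59 and -1.93. Other genes of this list took other courses. Sting1 (log2 fold changes -0.50 and 0.75) and Mavs (-0.23 and 0.15) fell with LPS and rose with BHB. Cgas (-0.61 and -0.26) and Irf3 (-0.32 and -0.24) fell at both steps. Ifih1, which encodes MDA5, the target of Trim65, was at 0.240 CPM (Control), 0.698 (Medium) and 0.408 (BHB). Its counts were few, at 7, 5 and 8 (Control), 20, 17 and 18 (Medium), and 16, 17 and 3 (BHB). Ifih1 rose with LPS (log2 fold change 1.54, edgeR adjusted p = 0.0217), whereas Trim65 fell. For Ifih1, BHB was not called different from Medium (log2 fold change -0.75, edgeR adjusted p = 0.201) or from Control (adjusted p = 0.252).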

How the data were processed

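mRNA of BV-2 cells was sequenced in 9 libraries, 3 each of Control, Medium and BHB, with groups taken from GEO's labels. The deposited values are raw counts, whole numbers for each gene symbol and library. For alignment the study's methods give STAR in a stranded mode with GENCODE M21, whereas HISAT2, after Trimmomatic and FastQC 0.11.5, is listed in the submitters' processing notes. How the counts were made, and whether they kept strand, are points not given in the sources used here.

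These counts were filtered with filterByExpr, scaled by TMM and tested with edgeR 4.0.16 (R 4.3.3; glmQLFit and glmQLFTest, 1 fit of 9 libraries). Benjamini-Hochberg adjustment ran over 10413 genes, with calls at 0.05. Each standard error is the log2 fold change over the square root of F. The fit was also run on counts simulated from its own model, which checks the code only and not whether that model holds for these libraries. Totals of 23411672 to 32767278 counts limit the precision for genes with few counts. The study used DESeq2. The 17 alternatives were RLE factors, library sizes alone, DESeq2 1.42.0, limma-voom (limma 3.58.1), no filter, at least 10 counts in every library, the groups compared alone, a replicate block and leaving out each library.

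Counts in every library were given for TRIM genes with a called absolute log2 fold change of at least 1 in any comparison. These genes also needed at least 100 counts in a library. The same was done for Trim21, Trim24, Trim25, Trim27, Trim28, Trim32 and Trim33. Trim26, Trim14 and other members were described by role. Members and lists were chosen with earlier results of these data known. Positions and exon lengths come from GENCODE M21, and promoters from RefSeq (GRCm38.p6). The motifs were fixed, but the window was not: 250 bases before the start were searched first, and the whole 300 bases only after that result had been seen. A further motif that was searched is not reported here.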

Additional observations from a re-analysis of the deposited data

How the results depend on the processing

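There were 105 pairs of a TRIM gene and a comparison. Of these, 78 stayed on their side of the threshold, and in their direction where called, in every alternative that tested them. The other 27 changed in at least 1. A pair that was never called counts as kept even where its sign turned, as for Trim46 with LPS (log2 fold changes of -0.25 to 0.20). RLE factors and DESeq2 gave the main counts of members. Library sizes alone changed 20 pairs. There, 6 members were higher with LPS, 10 lower with BHB, 4 higher and then lower, 5 lower and then higher, 0 higher at both steps and 3 lower at both steps. Among members called with LPS in the main test or with library sizes alone, Trim23 (log2 fold change -0.22) and Trim3 (-0.063) changed sign. Both moved in step with the shift of the median of all genes. Leaving out 1 library gave 9 to 10 members higher and 14 to 16 lower with LPS. It gave 5 to 7 higher and 12 to 18 lower with BHB, and 4 to 6 higher and 18 to 20 lower than Control. The same gave 6 to 8 genes higher and then lower, 3 to 6 lower and then higher, 0 to 1 higher at both steps and 3 to 5 lower at both steps. The 0 came without the second Control or the first Medium library, and the 12 without the third BHB library. Without the third Medium library Trim7, Trim8 and Trim66 joined the genes that were lower and then higher. The cause was not tested.

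Replicate numbers did not pair the libraries: deviations of same-numbered libraries correlated between -0.071 and 0.063, and 3 of 9 correlated best with their own number. With the replicate number as a block, LPS gave 10 members up and 15 down, and BHB gave 6 up and 17 down. The block gave 7 genes higher and then lower and 4 lower and then higher. The whole promoter window in place of the 250 bases before the start, chosen after seeing the data, changed the count of TRIM genes with an ISRE core from 2 to 4. Depth limits what can be said of the 8 members below the filter, for which no difference was detectable.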
